A study of Mus musculus with 72 samples.

Results

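The ventricles of Gnb5-/- mice were compared with those of Gnb5+/- mice, which addresses what is added by the loss of the remaining Gnb5 copy. The members were chosen by their labels as the knockout and heterozygous ventricle libraries, 6 of each, which makes 12 of the 72 RNA-seq libraries of the series. All came from male mice of 18 weeks on a C57BL/6J background. Each library represents 1 mouse and the whole left and right ventricles, so cells of all kinds in the chamber walls were sampled together. The Gnb5-/- mice carried a germline deletion of exon 3 on both chromosomes in every cell, the Gnb5+/- mice carried it on one, and 6 Gnb5+/+ ventricle libraries of the same age and sex were fitted in the same model and are given beside the comparison. Atria of the same 12 mice were used to ask whether an effect differed between the chambers.

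Gnb5 encodes the atypical G protein beta subunit that pairs with RGS proteins of the R7 family instead of a conventional gamma subunit. These complexes speed up the shut-off of Gi/o signalling, and in the heart they limit the parasympathetic brake, in which acetylcholine acts on muscarinic M2 receptors to open GIRK potassium channels and slow the beat. Without the beta subunit the R7 partners are unstable as proteins, which RNA counts do not show.

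The deposited values were whole reads per gene, and 29355469 to 34469499 reads per Gnb5+/- library and 31264428 to 37956952 per Gnb5-/- library were counted on genes. Levels are given as CPM, the counts of a gene scaled by the library total and the TMM factor. They are not divided by gene length, so they are compared between samples and not between genes. The ventricular muscle markers had summed levels of 43329 to 48778 CPM in Gnb5-/- and 44948 to 49924 CPM in Gnb5+/- libraries. One Gnb5+/- library, replicate 4, stood apart from the others: on the first principal component of the ventricle libraries, which held 17.1% of the variance, it lay at 73.1 while the others of the 12 lay between -16.7 and 6.26. It was the lowest of the 12 libraries in 28.1% of genes and the highest in 27.1%, and its share of reads outside genes was 2.85%, the lowest of the 18 ventricle libraries. Its Gnb5 level of 11.6 CPM was the highest of the Gnb5+/- libraries and below every Gnb5+/+ library. Values without it are given beside many of the results below.

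Gnb5 itself gives the check of the labels. Its level was lowest at 0.532, with a median of 0.920 and a highest value of 1.41 CPM in Gnb5-/- ventricles, against 8.29, 9.04 and 11.6 CPM in Gnb5+/- and 16.9, 18.1 and 21.02 CPM in Gnb5+/+ ventricles. The 3 genotypes did not overlap in any library, and the heterozygous level lay about midway. The log2 fold change of Gnb5-/- over Gnb5+/- was -3.31 ± 0.17 (SE, n = 6 and 6; adjusted p = 1.07e-10 in edgeR's quasi-likelihood test with Benjamini-Hochberg adjustment). The counts cover the whole gene, so reads from the exons that remain are included. In atria the same difference was -3.08 ± 0.12.

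Gnb5 lies on chromosome 9 of GRCm38, at chr9:75306288-75345876 on the plus strand (GENCODE M21). The study names the deleted exon by number only, and annotated transcripts number their exons differently, so exon 3 of a pair of transcripts is printed to show the candidates for the deleted sequence. In transcript Gnb5-202 exon 3 is chr9:75314272-75314383, with 112 bases. In transcript Gnb5-201 it is chr9:75327133-75327269, with 137 bases. Both exons are coding throughout, and neither length is a multiple of 3. Another transcript, Gnb5-206, has an exon 3 of 42 bases, not printed here.
Gnb5-202 exon 3: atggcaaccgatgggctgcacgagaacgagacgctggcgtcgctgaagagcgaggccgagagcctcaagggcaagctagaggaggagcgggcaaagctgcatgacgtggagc
Gnb5-201 exon 3: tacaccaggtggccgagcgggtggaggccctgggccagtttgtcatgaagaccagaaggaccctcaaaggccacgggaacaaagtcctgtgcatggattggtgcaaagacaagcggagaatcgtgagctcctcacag

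Few transcripts differed between Gnb5-/- and Gnb5+/- ventricles. Of 14866 genes tested, 13 were called at an adjusted p below 0.05 in edgeR's quasi-likelihood test, which is 0.0874% of those tested. In Gnb5-/- ventricles 10 fell (0.0673%) and 3 rose (0.0202%). On chromosome 9 Gnb5, Snap91, Rpl29, Hmgn3, Gm10635, Parp3, Mrpl3 and Abhd14b fell. On other chromosomes Gm5561 and Sms fell, and Ntn1, Adcy1 and Gm31520 rose. In each of the 13 genes the 12 libraries separated by genotype without overlap, which holds for 149 of all tested genes (1.00%), and the two-sided exact permutation p was 0.00216, the smallest that 6 mice against 6 can give. With RLE size factors in place of TMM 18 genes were called, 7 higher and 11 lower, and DESeq2's Wald test called 69, 36 higher and 33 lower.

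The count moved with single libraries. It was 8 without Gnb5+/- replicate 2, 23 without Gnb5+/- replicate 3, 21 without Gnb5+/- replicate 4 and 7 without Gnb5-/- replicate 4, and each of the 13 genes was among the 21. Gnb5, Snap91, Rpl29, Gm5561, Hmgn3, Ntn1 and Sms stayed called in each of the 12 fits that left out 1 library. The unadjusted p was below 0.05 for 1307 genes (8.79%), 686 higher and 621 lower, and for 1881 (12.5%) without Gnb5+/- replicate 4. At the threshold, Abhd14b and Gm31520 lay just inside (adjusted p = 0.0353 in edgeR's test), and Hemk1 and Etv5 lay just outside (adjusted p = 0.0530).

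**Figure D1:**
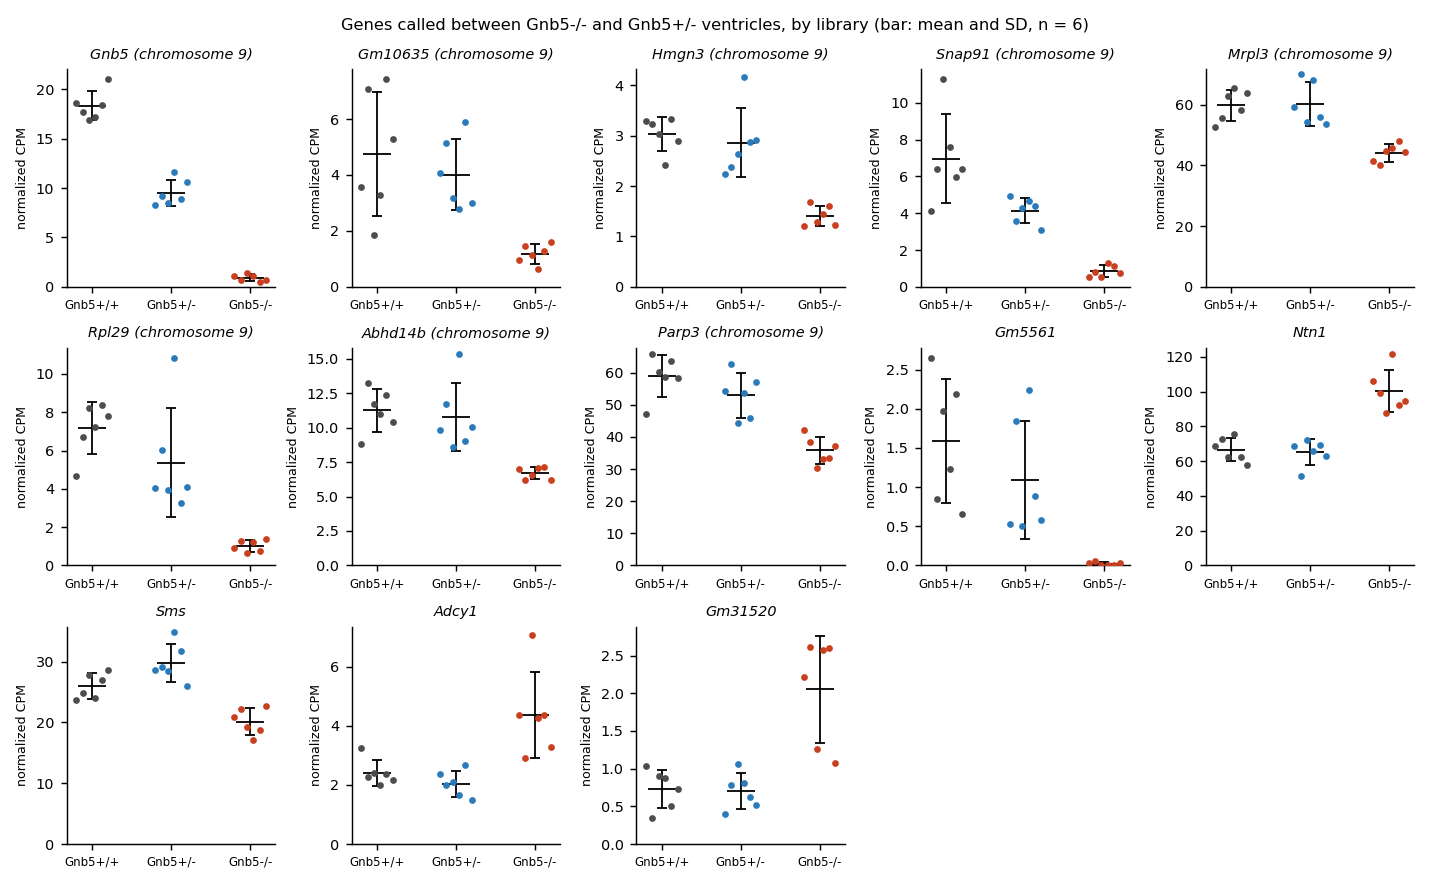
Normalized CPM (linear axes from 0) of the 13 called genes in each ventricle library of the 3 genotypes, with the mean and SD of 6 libraries as bars. In every panel the Gnb5-/- points lie apart from the Gnb5+/- points, and of the Gnb5+/- points of Rpl29 one stands at 10.8 CPM, above the others at 3.26 to 6.02 CPM.

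Of the genes on chromosome 9 besides Gnb5, Snap91 had the smallest p. Snap91 encodes AP180, the assembly protein of clathrin-coated vesicles at synapses, and lies 11.4 Mb from Gnb5. Its levels were 0.533, 0.793 and 1.32 CPM (lowest, median and highest) in Gnb5-/- ventricles, 3.08, 4.32 and 4.93 CPM in Gnb5+/- and 4.12, 6.42 and 11.3 CPM in Gnb5+/+. All Gnb5-/- libraries were below all others, and the heterozygous range overlapped the wild-type range. It fell by 2.29 ± 0.24 on the log2 scale (adjusted p = 4.60e-05 in edgeR's test), and the Gnb5+/- minus Gnb5+/+ value was -0.75 ± 0.21. The list of clathrin endocytosis and AP180 family genes was drawn up for Snap91, with earlier results of these data known. The call of Snap91 in it is therefore no separate result. Of its 23 tested genes no other was called, where 0.0874% of all tested genes were, and its median log2 fold change was 0.05.

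Hmgn3, which encodes a nucleosome-binding protein, lies 7.76 Mb from Gnb5. Its levels ranged from 1.20 to 1.68 CPM with a median of 1.36 in Gnb5-/- ventricles and from 2.23 to 4.17 CPM with a median of 2.75 in Gnb5+/-, where replicate 4 gave the highest value. It fell by 1.03 ± 0.16 on the log2 scale (adjusted p = 0.00573 in edgeR's test) and by 0.89 without that library, while Gnb5+/- and Gnb5+/+ differed by -0.08 ± 0.15. Gm10635, a lincRNA at 4.10 Mb, ranged from 0.631 to 1.59 CPM in Gnb5-/- (median 1.23) and from 2.78 to 5.90 CPM in Gnb5+/- ventricles (median 3.62). It fell by 1.76 ± 0.30 on the log2 scale (adjusted p = 0.0188 in edgeR's test). That call was lost without Gnb5+/- replicate 2, Gnb5-/- replicate 1 or Gnb5-/- replicate 4, with adjusted p from 0.0612 to 0.0704.

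Of the other called genes of the chromosome 3 lay within 1 Mb of each other, about 31.1 Mb from Gnb5. They were Rpl29, a protein of the large ribosomal subunit; Abhd14b, a hydrolase-fold protein; and Parp3, a mono-ADP-ribosyltransferase of DNA repair. Abhd14b ranged from 6.17 to 7.15 CPM (median 6.79) in Gnb5-/- and from 8.601 to 15.3 CPM (median 9.93) in Gnb5+/- ventricles. Parp3 ranged from 30.3 to 42.2 CPM (median 35.3) and from 44.2 to 62.8 CPM (median 53.9). Neither gene's groups overlapped, and they fell by 0.68 ± 0.13 and 0.57 ± 0.10 on the log2 scale (adjusted p = 0.0353 and 0.0272 in edgeR's test). Mrpl3, a mitochondrial ribosomal protein encoded 29.7 Mb from Gnb5, ranged from 40.2 to 48.1 CPM (median 44.5) against 53.8 to 70.2 CPM (median 57.6) and fell by 0.45 ± 0.08 (adjusted p = 0.0353).

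The calls of these moderate changes depended on single libraries more than those above. Parp3 stayed called without Gnb5+/- replicates 3, 4 or 5 or Gnb5-/- replicates 1 or 6, and its adjusted p lay between 0.0569 and 0.0991 without each of the 7 others. Mrpl3 stayed called without Gnb5+/- replicates 3, 4, 5 or 6 or Gnb5-/- replicate 5, with adjusted p from 0.0635 to 0.125 in the other fits. Abhd14b stayed called without Gnb5+/- replicates 3, 4 or 5, and its adjusted p was 0.0595 to 0.121 without each of the 9 others. Their fold changes kept their sign in each of those fits. All 3 calls were also lost when the Gnb5+/+ libraries were left out of the fit, with adjusted p of 0.0592 for Parp3 and 0.0757 for Mrpl3 and Abhd14b.

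Set apart by position, chromosome 9 besides Gnb5 held 7 called genes of 841 tested (0.832%), and the other chromosomes held 5 of 14024 (0.0357%), against 0.0874% of all tested genes. The chromosome 9 count was 4 to 11, Gnb5 included, in the fits without 1 library, with the lowest value without Gnb5-/- replicate 4 and 5 without Gnb5+/- replicate 2, Gnb5-/- replicate 1 or Gnb5-/- replicate 3. The 7 genes lay at higher positions than Gnb5 and within 40 Mb of it, and all fell. On that side 283 genes were tested within 40 Mb, of which 19.4% had an unadjusted p below 0.05 (8.79% over all genes) and 6.71% had groups that did not overlap (1.00% over all genes). On the side of lower positions 323 genes were tested within 40 Mb, none was called by edgeR, and the shares were 9.91% and 1.55%. At 40 Mb or more on either side, 235 genes were tested with no call, 8.94% and 0.851%.

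**Figure D2:**
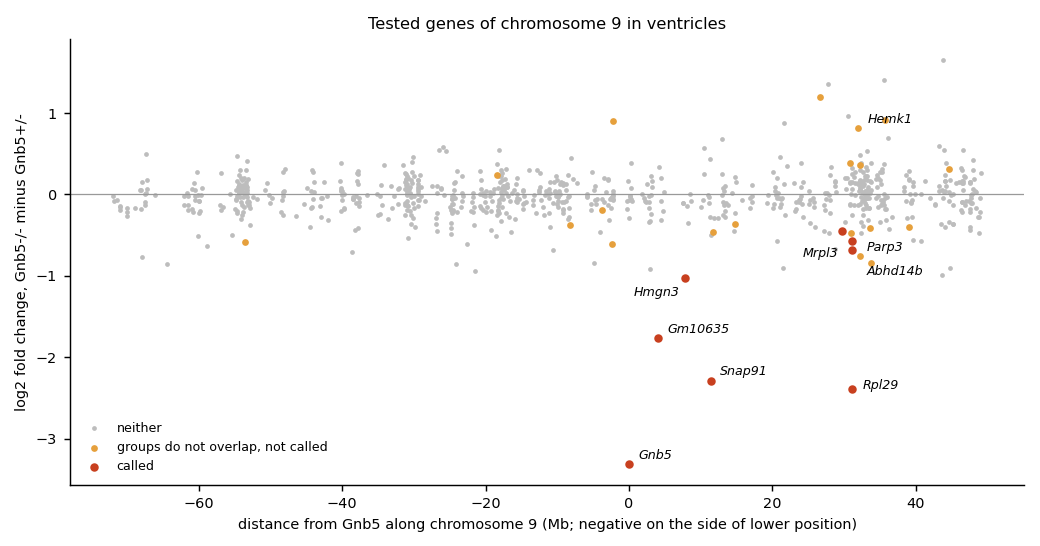
The log2 fold change of Gnb5-/- over Gnb5+/- ventricles for the 842 tested genes of chromosome 9, Gnb5 included, by signed distance from Gnb5 in Mb. The 8 called genes lie at 0 or on the side of higher positions, from Gnb5 at -3.31 to Mrpl3 at -0.45, and most genes on both sides lie near 0.

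Differences on the chromosome ran both ways. Of the 26 genes besides Gnb5 whose Gnb5-/- and Gnb5+/- libraries did not overlap, 18 were lower and 8 higher in Gnb5-/-. Hemk1, a methyltransferase gene 32.0 Mb from Gnb5, ranged from 27.8 to 36.9 CPM (median 32.9) in Gnb5-/-, from 13.03 to 22.3 CPM (median 19.5) in Gnb5+/- and from 9.87 to 19.7 CPM (median 13.2) in Gnb5+/+ ventricles. Its log2 fold change was 0.82 ± 0.16 (adjusted p = 0.0530 in edgeR's test) between Gnb5-/- and Gnb5+/-, and 0.44 ± 0.16 between Gnb5+/- and Gnb5+/+. Ephb1, an ephrin receptor gene at 26.6 Mb that was picked after its values were seen, had mean levels of 33.0, 14.4 and 6.27 CPM in Gnb5-/-, Gnb5+/- and Gnb5+/+ ventricles, with 1.19 ± 0.45 on the log2 scale between the first 2 (adjusted p = 0.468).

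Genes of heart interest on the chromosome were less separated. Drd2, a dopamine receptor gene, had levels of 3.52 ± 0.860 CPM (SD, n = 6) in Gnb5-/- and 2.35 ± 0.424 CPM in Gnb5+/- ventricles, a log2 difference of 0.58 ± 0.17 (adjusted p = 0.326). Scn10a, which encodes the sodium channel NaV1.8, had 4.48 ± 0.963 and 3.44 ± 0.700 CPM (log2 0.38 ± 0.21, adjusted p = 0.624). Tbx18, a transcription factor of the sinus node and epicardium, had 2.51 ± 0.214 and 3.05 ± 0.358 CPM (log2 -0.28 ± 0.12, adjusted p = 0.497), and its groups overlapped. Tpm1, a tropomyosin of the sarcomere at 8.26 Mb, ranged from 3480 to 4714 CPM in Gnb5-/- and from 4826 to 7832 CPM in Gnb5+/- ventricles without overlap, and its log2 value was -0.37 ± 0.11 (adjusted p = 0.311) and -0.25 without replicate 4, the library with the highest level.

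Rpl29 has many near-identical copies, and one of them, Gm5561, was itself called, so their sequences are shown. Gm5561 is a processed pseudogene at chr1:179520378-179520857 on the minus strand. Over 480 bases it matches the coding sequence of Rpl29 at 98.3% with 8 mismatches. Gm8210, a processed pseudogene at chr1:43189156-43189638 that was picked after its values were seen, matches it at 99.4% with 3 mismatches. The 120 bases below, positions 114 to 233 of the Rpl29 coding sequence, hold 4 of the mismatches with Gm5561, in capitals, and none with Gm8210 (GENCODE M21 transcripts).
Rpl29: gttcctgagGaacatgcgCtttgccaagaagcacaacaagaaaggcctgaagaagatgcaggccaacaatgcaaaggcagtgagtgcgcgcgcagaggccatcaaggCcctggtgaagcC
Gm5561: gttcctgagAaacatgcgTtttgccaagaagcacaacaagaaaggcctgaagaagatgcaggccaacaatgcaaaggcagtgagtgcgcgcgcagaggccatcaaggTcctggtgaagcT
Gm8210: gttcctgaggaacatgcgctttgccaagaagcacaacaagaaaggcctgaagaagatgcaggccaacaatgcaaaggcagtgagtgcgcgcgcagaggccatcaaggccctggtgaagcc

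The 3 genes had different patterns. Rpl29 had 22 to 47 deposited counts per library (median 39) in Gnb5-/-, 100 to 320 (median 120.5) in Gnb5+/- and 136 to 333 (median 239.5) in Gnb5+/+ ventricles. Gm5561 had 4 counts over the 6 Gnb5-/- libraries, 3 of which held none, and 15 to 66 counts per library in Gnb5+/- (193 in all). Gm8210 went the other way, with 30 to 102 counts in Gnb5-/-, 0 to 24 in Gnb5+/- with 2 libraries at 0, and 5 of 6 Gnb5+/+ libraries at 0.

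On the log2 scale Rpl29 fell by 2.38 ± 0.28 (adjusted p = 0.000139 in edgeR's test) and by 2.05 without Gnb5+/- replicate 4, whose 10.8 CPM lay above the 3.26 to 6.02 CPM of the others. Gm5561 had a fitted value of -5.63 ± 0.69 (adjusted p = 0.000244), which depends on the prior count because so few Gnb5-/- reads were counted. Gm8210 had 1.87 ± 0.79 (adjusted p = 0.497). In GENCODE M21, 100 genes match the Rpl29 coding sequence at 85% identity or more over at least 50% of its length. Of these 91 are in the files, 36 had a read in some ventricle library and 5 passed the filter on low counts. The files list 25961633 to 32603814 alignments per ventricle library that were not unique, in a row apart from the genes, and do not say from which genes they came. The levels of Rpl29 and its copies are therefore uncertain, and the part of this in the result was not tested.

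A pair of other pseudogenes outside chromosome 9 also resembled genes of chromosome 9, and a stretch of each is shown beside its parent. Gm31520, called higher, is a transcribed processed pseudogene at chr6:66264155-66284845. Its transcript Gm31520-202 matches Sc5d, a sterol desaturase of cholesterol synthesis 33.0 Mb from Gnb5, at 88.6% over 1169 aligned bases. Gm7049, a processed pseudogene at chr13:62813076-62814787, matches Me1, the cytosolic malic enzyme encoded 11.2 Mb from Gnb5, at 98.4% over 1716 aligned bases. The stretches are the 120 aligned bases of the parent's coding sequence without a gap that hold the most mismatches, which are in capitals, 14 in the first pair and 4 in the second.
Sc5d: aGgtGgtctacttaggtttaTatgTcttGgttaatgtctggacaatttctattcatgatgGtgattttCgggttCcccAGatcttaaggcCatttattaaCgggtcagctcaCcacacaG
Gm31520: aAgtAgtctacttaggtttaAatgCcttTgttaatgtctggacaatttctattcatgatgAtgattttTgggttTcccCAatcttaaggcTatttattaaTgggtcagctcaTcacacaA
Me1: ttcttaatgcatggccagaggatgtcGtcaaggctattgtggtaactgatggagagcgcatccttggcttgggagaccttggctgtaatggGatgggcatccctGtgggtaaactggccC
Gm7049: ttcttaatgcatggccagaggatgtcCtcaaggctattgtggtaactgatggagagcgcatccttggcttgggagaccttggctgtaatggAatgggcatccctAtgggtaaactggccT

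Gm31520 had 35 to 98 counts per library in Gnb5-/- (median 80.5), 12 to 32 in Gnb5+/- (median 20.5) and 12 to 31 in Gnb5+/+ ventricles (median 27.5), and the lowest Gnb5-/- library, at 35 counts, lay just above the highest of the others. It rose by 1.55 ± 0.29 on the log2 scale (adjusted p = 0.0353 in edgeR's test). The call held without Gnb5+/- replicates 3 or 4 or Gnb5-/- replicates 3 or 6, and its adjusted p was 0.0811 to 0.103 without each of the 8 others and 0.0592 with the Gnb5+/+ libraries left out. Sc5d had -0.17 ± 0.10 (adjusted p = 0.641). Gm7049 had 19 to 50 counts in Gnb5-/-, 9 to 14 in Gnb5+/- and 3 to 8 in Gnb5+/+ ventricles, with no overlap between genotypes (log2 1.18 ± 0.23, adjusted p = 0.0530), and Me1 had -0.27 ± 0.08 (adjusted p = 0.311). The part of shared reads in these values was not tested.

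**Figure D3:**
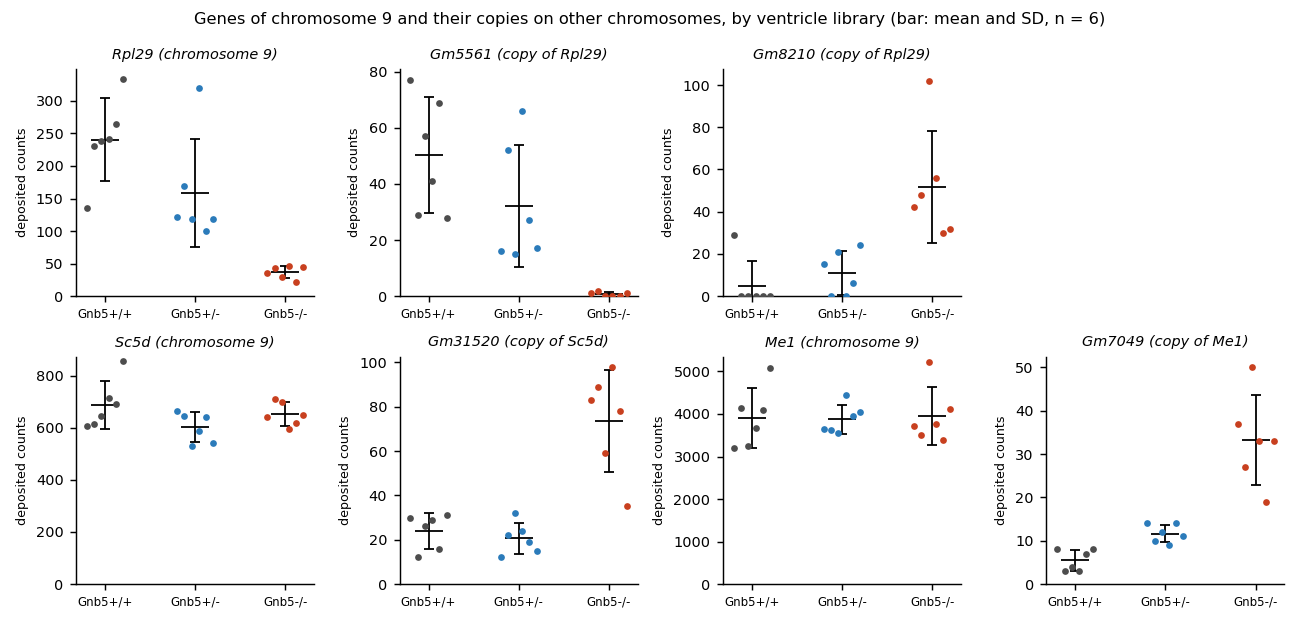
Deposited counts per ventricle library (linear axes from 0, not scaled for depth) of 3 genes of chromosome 9 and 4 copies of them on other chromosomes, with the mean and SD of 6 libraries as bars. Gm5561 falls to 0 to 2 counts in the Gnb5-/- libraries, while Gm8210, Gm31520 and Gm7049 are higher there than in every Gnb5+/- library.

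The remaining 3 called genes outside chromosome 9 have annotated functions. Ntn1, which encodes the guidance cue netrin-1, lies at chr11:68209364-68400823. Its levels ranged from 87.6 to 122 CPM (median 97.0) in Gnb5-/-, from 51.3 to 72.1 CPM (median 67.4) in Gnb5+/- and from 58.0 to 75.8 CPM (median 65.5) in Gnb5+/+ ventricles. The Gnb5-/- libraries were above all others, and the heterozygous and wild-type ranges lay over each other. It rose by 0.63 ± 0.10 on the log2 scale (adjusted p = 0.00573 in edgeR's test).

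Adcy1, an adenylyl cyclase stimulated by calcium and calmodulin, lies at chr11:7063489-7178506. It ranged from 2.91 to 7.07 CPM (median 4.31) in Gnb5-/- and from 1.47 to 2.67 CPM (median 2.04) in Gnb5+/- ventricles, with replicate 3 of Gnb5-/- the highest. It rose by 1.10 ± 0.20 (adjusted p = 0.0272 in edgeR's test), and lost the call without Gnb5+/- replicates 2 or 6 or Gnb5-/- replicates 1 or 4 (adjusted p from 0.0585 to 0.0868) or without the Gnb5+/+ libraries (adjusted p = 0.0757). Sms, spermine synthase, lies at chrX:157443855-157492287 and ranged from 17.1 to 22.8 CPM (median 20.1) in Gnb5-/- against 26.0 to 34.9 CPM (median 28.8) in Gnb5+/- ventricles, so it fell by 0.56 ± 0.09 (adjusted p = 0.00583).

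For Ntn1, Adcy1 and Sms the heterozygous level was not told apart from the wild-type level. Against Gnb5+/+, Gnb5+/- ventricles had log2 values of -0.04 ± 0.10 for Ntn1, -0.24 ± 0.20 for Adcy1 and 0.20 ± 0.09 for Sms, none of them called. The Gnb5-/- minus Gnb5+/+ values were 0.59 ± 0.10 (adjusted p = 0.00591 in edgeR's test), 0.87 ± 0.19 (adjusted p = 0.0857) and -0.37 ± 0.09 (adjusted p = 0.130). The comparisons share libraries and are given only side by side. In all, 3 genes (0.0202%) were called between Gnb5+/- and Gnb5+/+ and 28 (0.188%) between Gnb5-/- and Gnb5+/+ ventricles.

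Close to the threshold outside chromosome 9, Etv5, an ETS transcription factor, had 10.7 ± 2.48 CPM in Gnb5-/- and 6.27 ± 0.931 CPM in Gnb5+/- ventricles (log2 0.77 ± 0.15, adjusted p = 0.0530). Plagl1, an imprinted zinc finger gene, had 3.17 ± 0.557 and 1.97 ± 0.170 CPM (0.68 ± 0.14, adjusted p = 0.0530). Myom2, which encodes an M-band protein of the sarcomere, had 1581 ± 135 and 961 ± 249 CPM (0.72 ± 0.15, adjusted p = 0.0560). None of the 3 overlapped between the groups, and Gm35330, a lincRNA, was lower in Gnb5-/- without overlap (-0.56 ± 0.11, adjusted p = 0.0560). In Gnb5+/+ ventricles the means were 8.36 CPM for Etv5, 1.78 for Plagl1, 1082 for Myom2 and 6.46 for Gm35330. Etv5 ranged from 6.69 to 10.4 CPM there and from 8.13 to 14.4 CPM in Gnb5-/-, which overlap. Gm35330 also overlapped, with 5.59 to 7.37 CPM in Gnb5+/+ and 4.32 to 6.75 CPM in Gnb5-/-. Plagl1 and Myom2 did not.

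In atria of the same mice 8 of 16181 genes (0.0494%) were called between Gnb5-/- and Gnb5+/- and 4.86% had an unadjusted p below 0.05. The called genes were Gnb5, Snap91, Rpl29, Gm5561, Abhd14b, Bmp5, Bfsp2 and Dock3. The difference of the effect between ventricles and atria was called for 1 of 16198 genes (0.00617%), Gm31520, by edgeR with each mouse as a block, and 5.57% had an unadjusted p below 0.05. In atria its levels ranged from 10.3 to 18.0 CPM in Gnb5-/- and from 11.6 to 17.4 CPM in Gnb5+/-, which overlap, with a log2 value of -0.11. The ventricular effect exceeded the atrial one by 1.65 ± 0.21 (adjusted p = 0.00711), and by 1.67 (adjusted p = 0.0110) without mouse 4, which gave replicate 4 of Gnb5+/-.

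For Ntn1, Adcy1 and Gm10635 the chambers gave values of different size, and the difference was not called by edgeR. In atria they had log2 values of 0.08, -0.03 and -0.35 against 0.63, 1.10 and -1.76 in ventricles, and the differences were 0.55 ± 0.12, 1.11 ± 0.21 and -1.41 ± 0.24 (adjusted p = 0.323, 0.162 and 0.113). Under DESeq2's Wald test each of the 3 differences was called (adjusted p = 0.0166, 0.00144 and 0.000751). Drd2, at 0.58 in ventricles and -0.63 in atria, differed by 1.19 ± 0.20 (adjusted p = 0.113 by edgeR and 0.000751 by DESeq2). Snap91 differed by -0.72 ± 0.18 (adjusted p = 0.566).

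Adcy1 and Gm31520 had high atrial levels. In Gnb5+/- atria, Adcy1 ranged from 99.9 to 131 CPM and Gm31520 from 11.6 to 17.4 CPM, in libraries normalized apart from the ventricles. Atrial muscle markers were therefore read beside them: their summed level was 155 to 295 CPM in Gnb5-/- and 117 to 343 CPM in Gnb5+/- ventricles. The 343 CPM was that of replicate 4, and the other Gnb5+/- libraries lay between 117 and 197 CPM, in the lower part of the Gnb5-/- range or below it. Nppa alone gave 70.9 to 177 CPM in Gnb5-/- and 51.1 to 132 CPM in Gnb5+/- ventricles. The sum therefore follows this 1 gene in large part and is no measure of all 10 markers. Of 9 tested markers 4 had positive and 5 negative log2 values, from -0.94 for Sln to 0.67 for Nppa, none called, and their median turned from -0.06 to 0.06 without replicate 4. The part of atrial tissue in these values was not tested.

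**Figure D4:**
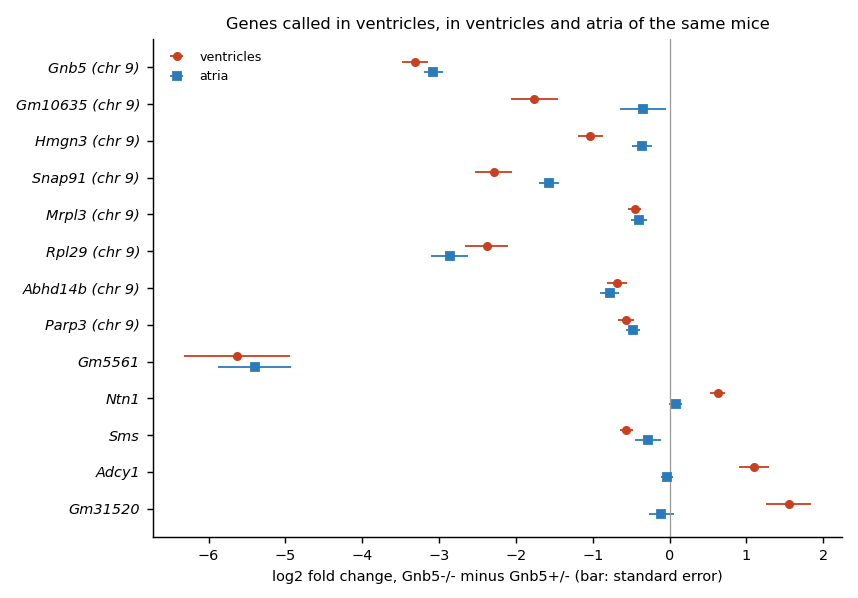
The log2 fold change of Gnb5-/- over Gnb5+/- with its standard error for the 13 genes called in ventricles (circles), in atria of the same mice (squares). Gnb5, Snap91, Rpl29 and Gm5561 are far below 0 in both chambers, while Ntn1, Adcy1 and Gm31520 are above 0 in ventricles and at -0.11 to 0.08 in atria.

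Among the partners of Gnb5, no gene passed the test. Of 10 tested genes of the G beta and R7-RGS group, 2 had an unadjusted p below 0.05 and both were higher (4.61% of all genes were higher at that level and 4.18% lower). Gnb3, another G beta subunit, ranged from 10.02 to 14.02 CPM (median 11.3) in Gnb5-/-, from 2.86 to 8.57 CPM (median 6.54) in Gnb5+/- and from 3.34 to 10.1 CPM (median 5.65) in Gnb5+/+ ventricles. All Gnb5-/- libraries lay above all Gnb5+/- libraries. On the log2 scale the difference was 0.98 ± 0.25, with an adjusted p of 0.203 in edgeR's test and 0.0307 in DESeq2's Wald test. The other beta subunit genes Gnb1, Gnb2 and Gnb4 had log2 values of 0.01 ± 0.06, 0.12 ± 0.18 and 0.01 ± 0.09. The Gnb2 value was 0.31 (adjusted p = 0.404) without replicate 4 of Gnb5+/-, whose 67.5 CPM lay above the 32.6 to 43.6 CPM of the others, and 0.04 without Gnb5-/- replicate 3.

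The R7 partners had small positive values, with wide errors. Rgs6, the main R7 member of the heart, had 19.5 ± 3.15 CPM in Gnb5-/- and 17.4 ± 0.866 CPM in Gnb5+/- ventricles (log2 0.17 ± 0.13). Rgs7 had 0.25 ± 0.23 and Rgs11 0.43 ± 0.39, at mean levels of 2.22 and 0.330 CPM in Gnb5-/- ventricles, and Rgs9 had too few counts to be tested. Single libraries moved these values: Rgs11 had 0.90 without Gnb5+/- replicate 5, Rgs7 had 0.10 without Gnb5-/- replicate 5 and 0.41 without Gnb5-/- replicate 3, and Rgs6 had 0.09 without Gnb5-/- replicate 4. In these 3 tested R7 genes the 2 groups overlapped.

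Downstream of the muscarinic receptor none of 23 tested genes was called, and 2 were higher and 3 lower at an unadjusted p below 0.05. At that level 4.61% of all genes were higher and 4.18% lower. Kcnj3, the GIRK1 channel subunit, had 68.9 ± 12.1 CPM in Gnb5-/- and 90.1 ± 18.9 CPM in Gnb5+/- ventricles (log2 -0.39 ± 0.13, adjusted p = 0.411). Its Gnb5+/+ level was 75.5 ± 5.62 CPM, and the Gnb5+/+ range of 70.7 to 85.7 CPM lay inside the Gnb5-/- range of 51.6 to 86.3 CPM. Rgs12 and Rgs4, which also turn off G proteins, had 0.38 ± 0.13 and 0.31 ± 0.11, and Gng5, a gamma subunit, had -0.28 ± 0.12. The list's median was -0.10, beside -0.01 over all genes tested.

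On the sympathetic side 34 genes of adrenergic receptors and cyclic AMP were tested, and none was called. At an unadjusted p below 0.05, 6 were higher (4.61% over all genes) and 2 lower (4.18% over all genes), and the median was 0.08. Arrb1, beta-arrestin 1, ranged from 31.6 to 36.8 CPM in Gnb5-/- and from 19.3 to 30.6 CPM in Gnb5+/- ventricles without overlap (log2 0.33 ± 0.10, adjusted p = 0.326). Adcy5 and Adcy6, the main cardiac adenylyl cyclases, had 0.31 ± 0.12 and 0.34 ± 0.11, and Pde1c, a phosphodiesterase, had 0.44 ± 0.16 with groups that did not overlap. Mean Adcy6 levels were 185, 146 and 178 CPM in Gnb5-/-, Gnb5+/- and Gnb5+/+ ventricles, so the Gnb5+/+ level lay near the Gnb5-/- level. Those of Adcy5 were 75.5, 60.8 and 61.9 CPM. Adcy1 was outside this list.

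In the contractile apparatus, 34 sarcomere genes were tested with no call, 6 higher and 3 lower at an unadjusted p below 0.05, and a median of -0.07. At that level 4.61% of all genes were higher and 4.18% lower. Without Gnb5+/- replicate 4 the median was 0.01, with 6 higher and 6 lower, where 12.5% of all genes were at that level. Lrrc10, a cardiac leucine-rich repeat protein at the Z-disc, had 90.5 ± 6.98 and 70.4 ± 7.34 CPM in Gnb5-/- and Gnb5+/- ventricles (log2 0.36 ± 0.10, adjusted p = 0.311), and Tpm2 had -0.44 ± 0.16. Tnnt2, cardiac troponin T, had -0.09 ± 0.11, and 0.01 without replicate 4, which held its highest level. Of 30 tested calcium-handling genes 1 was higher, Jph2 of the junctional membrane at 0.23 ± 0.11, and 1 lower, Ryr1 at -0.81 ± 0.30, whose levels were below 1 CPM in every library. Mean Jph2 levels were 292, 249 and 293 CPM in Gnb5-/-, Gnb5+/- and Gnb5+/+ ventricles, so the Gnb5+/+ level lay near the Gnb5-/- level. Of 34 ion channel and connexin genes 2 were higher and 3 lower, among them Hcn4, the pacemaker channel, at -0.46 ± 0.18, and Kcnip2, a subunit of the transient outward channel, at 0.30 ± 0.11. Without replicate 4, 1 was higher and 5 lower in both of these lists, beside the same 12.5% of all genes.

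Of 30 tested transcription factors of the chambers and conduction system 3 were higher and 1 lower at an unadjusted p below 0.05. Over all genes 4.61% were higher and 4.18% lower at that level. Hey1, a Notch target, had 7.33 ± 0.516 and 5.12 ± 0.974 CPM in Gnb5-/- and Gnb5+/- ventricles (log2 0.52 ± 0.12, adjusted p = 0.110 in edgeR's test and 0.0107 in DESeq2's). Without replicate 4 of Gnb5+/- the value was 0.61 (adjusted p = 0.0186 in edgeR's test). Nppa, atrial natriuretic peptide, had 125 ± 41.4 and 78.5 ± 28.0 CPM (0.67 ± 0.24, adjusted p = 0.448), and Igf1r, the insulin-like growth factor receptor, had 0.49 ± 0.15 and 0.35 without replicate 4, its lowest Gnb5+/- library. In the natriuretic and growth list of 23 genes 3 were higher and 1 lower, in the BMP and TGF beta list of 29 genes 3 were higher, and in the matrix list of 37 genes 2 were higher and 1 lower, none of them called. Without replicate 4 these were 4 and 0, 6 and 1, and 4 and 1, beside 12.5% of all genes with an unadjusted p below 0.05.

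In metabolism, 38 fatty acid genes had 1 higher and 6 lower at an unadjusted p below 0.05 and a median of -0.13, which was -0.05 with 1 higher and 2 lower without Gnb5+/- replicate 4. Over all genes 4.61% were higher and 4.18% lower at that level, and 12.5% were at it without that library. Decr1 and Slc25a20, of beta oxidation and carnitine shuttling, had -0.33 ± 0.10 and -0.32 ± 0.11. Of 32 glucose and malate genes 1 was higher and 1 lower, and of 20 clock genes 1 was lower, Nr1d2 at -0.35 ± 0.17. Among transcripts of the mitochondrial chromosome, 16 were tested, 5 of them lower at that level, with a median of -0.33. None of these was called.

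None of 26 tested immediate early genes, which respond within minutes to stimulation or handling, was called. Of them 23 had negative log2 values, 6 with an unadjusted p below 0.05, where 4.18% of all genes were lower at that level. The median was -0.32, beside -0.01 over all genes, and -0.14 without Gnb5+/- replicate 4. Nr4a1 ranged from 4.24 to 16.1 CPM (median 9.25) in Gnb5-/- and from 10.6 to 84.7 CPM (median 23.7) in Gnb5+/- ventricles (log2 -1.95 ± 0.57, adjusted p = 0.317), and the Gnb5+/+ range of 4.16 to 92.2 CPM held both. The SD among mice was 4.40 CPM in Gnb5-/-, 30.1 CPM in Gnb5+/- and 30.5 CPM in Gnb5+/+.

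Markers of other cell types were read for what the tissue pieces held, beside 4.61% of all genes higher and 4.18% lower at an unadjusted p below 0.05. Of 7 tested skeletal muscle markers 4 were lower at an unadjusted p below 0.05, with a median of -0.82 and a level summed over all 15 listed markers of 25.5 to 48.1 CPM in Gnb5-/- and 42.1 to 83.5 CPM in Gnb5+/- ventricles. Of the 7, 6 had negative log2 values and 1 positive, Ckmt1 at 0.46. Without Gnb5+/- replicate 4, 1 was higher and 4 lower at that level, where 12.5% of all genes were at it. Myf6, the lineage factor, was at 0 in all 12. The 4 lower markers, Myl1, Atp2a1, Tnni2 and Tnnt3, had mean levels of 34.8, 0.989, 1.06 and 0.344 CPM in Gnb5+/- ventricles. In Gnb5+/- atria, normalized apart, these were 357, 26.2, 4.62 and 2.54 CPM. They do not tell skeletal muscle from atrial tissue here, and the part of either was not tested. Of 7 tested blood markers 6 were lower, with a median of -1.15 and summed levels of 239 to 612 and 274 to 2389 CPM, the highest in replicate 4 of Gnb5+/-. Without that library the blood median was -0.60 with none at that level. The other tested blood marker, Hba-a2, had a positive log2 value of 0.91 with all libraries. Adipocyte markers had 2 of 6 higher and a median of 0.66, with sums of 19.1 to 33.6 and 19.6 to 33.7 CPM. The 33.7 CPM was again replicate 4, and the other Gnb5+/- libraries reached 24.4 CPM.

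The remaining lists moved less. Leukocyte, fibroblast, endothelial, smooth muscle, epicardial and nerve markers had medians from -0.23 to 0.08 and no call. Dbh, the noradrenaline-synthesising enzyme of sympathetic nerves, had 2.95 ± 0.763 CPM in Gnb5-/- and 5.24 ± 1.30 CPM in Gnb5+/- ventricles (log2 -0.83 ± 0.24, adjusted p = 0.311). Its Gnb5+/+ level was 3.37 ± 1.25 CPM, nearer to the Gnb5-/- than to the Gnb5+/- level. The Gnb5-/- range lay inside the Gnb5+/+ range, and the Gnb5+/- range overlapped it in part. In such bulk tissue, fewer cells of a type and less RNA per cell cannot be told apart.

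**Figure D5:**
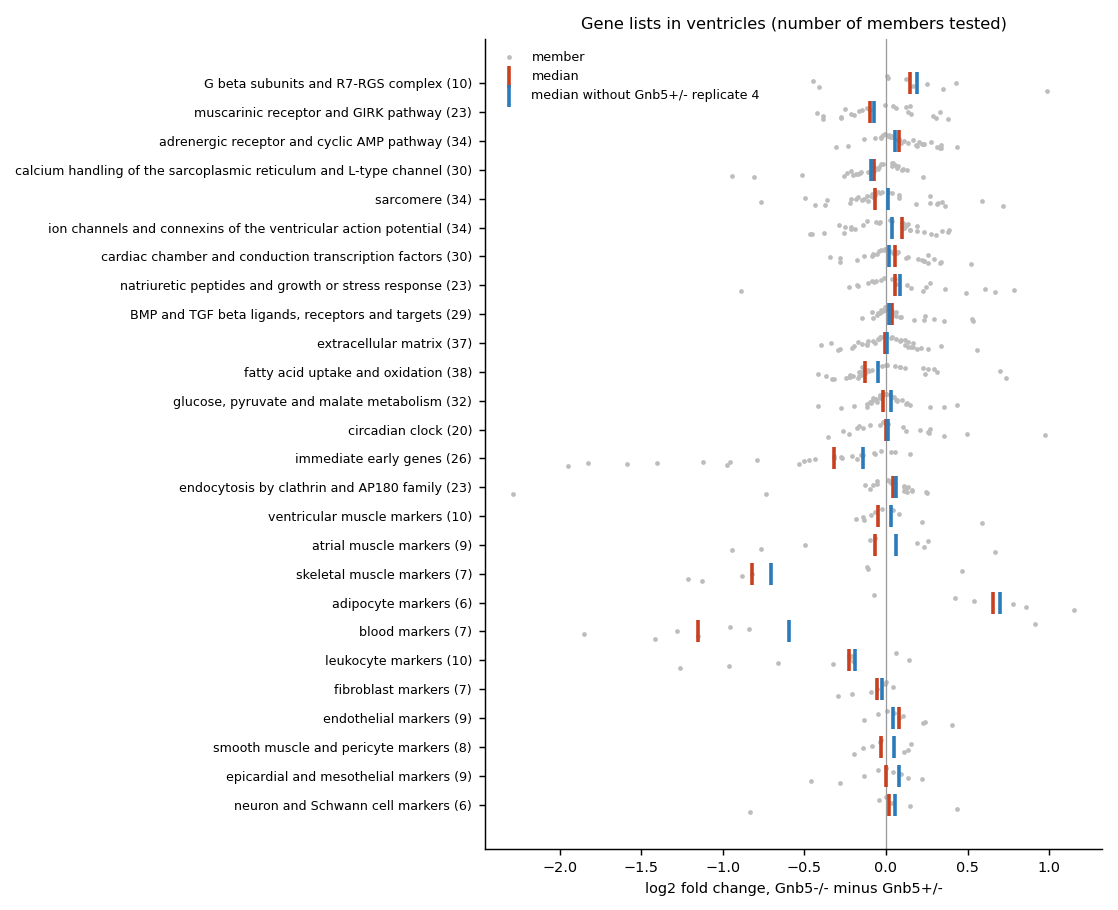
The log2 fold change of Gnb5-/- over Gnb5+/- ventricles for each tested member of 26 gene lists (points), with the list's median (red) and its median without replicate 4 of Gnb5+/- (blue). The blood marker median moves from -1.15 to -0.60 and the immediate early gene median from -0.32 to -0.14, and Snap91 at -2.29 is the lowest point.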

How the data were processed

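The authors made stranded libraries from total RNA, sequenced single-end reads, trimmed adapters with cutadapt 1.8, filtered out reads of ribosomal RNA or low complexity, aligned what was left to GRCm38 with STAR 2.5.3a and counted reads per Ensembl gene with HTSeq 0.9.1, as the paper's methods and the submitters' processing notes give it. The deposited values are whole, unnormalized read counts, 1 file per library; alignments that were not unique are listed in a summary row of each file, which was left out of totals and tests, and the strand setting and whether such reads were also counted on genes are not given in the sources used here. Of 53715 gene identifiers 53620 were matched to GENCODE M21. Groups came from the labels, and the brain libraries were not used here.

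All 18 ventricle libraries were fitted together by genotype with edgeR 4.0.16 in R 4.3.3 (TMM, filterByExpr with a count minimum of 10, quasi-likelihood test, Benjamini-Hochberg adjustment over all genes tested, threshold 0.05). The study's own test was DESeq2's Wald test, run here as an alternative (DESeq2 1.42.0). Each standard error was derived from the fold change and its F statistic. Log2 CPM (prior count 2) were compared by two-sided exact permutation over all 924 divisions of the 12 mice. The chambers were compared in 24 libraries of 12 mice with mouse as a block. Precision rests on the spread between 6 mice, which includes counting error. Each fit was first tested on simulated data. Pseudogenes were matched to transcripts with blastn 2.17.0.

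The comparison, its members and the 26 gene lists were chosen with earlier results of these data known. Genes were named by rule: every called gene, the 10 of smallest p outside chromosome 9, up to 4 members per list at an unadjusted p below 0.05, and the ventricular genes of the study. Gm8210, Ephb1, Sc5d, Sln, Myf6, Ckmt1, Hba-a2, Bmp5, Bfsp2 and Dock3 lie outside it and were named after their values were seen. The alternatives were other size factors, filters, tests and libraries.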

Additional observations from a re-analysis of the deposited data

Results flagged for a closer look

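Dixon's ratio was used to look for 1 library far from the rest of its group. It was taken in each group of 6 ventricle libraries of the compared genotypes. The 87 named genes were used except Rgs9, which had too few counts to be tested. Of 172 groups 17 had such a library. The cut-off is set to flag about 1 in 20 among independent groups of normal values. These groups share the same 12 libraries, so that rate is no strict yardstick here. Of the 17, 9 were replicate 4 of Gnb5+/-. That library was the highest for Rpl29 (10.8 CPM), Hmgn3 (4.17 CPM), Tpm1 (7832 CPM), Nppa (132 CPM), Hba-a1 (1588 CPM), Tnnt2 (5965 CPM) and Gnb2 (67.5 CPM), and the lowest for Igf1r (8.78 CPM) and Npr3 (18.4 CPM).

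The other 8 libraries were spread over both genotypes. Among Gnb5+/- ventricles these were Etv5 in replicate 3 (8.10 CPM), Plin1 and Rgs11 in replicate 5 (0.652 and 0.587 CPM) and Gnb4 in replicate 6 (17.2 CPM). Among Gnb5-/- ventricles they were Adcy1 in replicate 3 (7.07 CPM), Tbx18 in replicate 2 (2.91 CPM), Acadl in replicate 6 (1207 CPM) and Cfd in replicate 1 (5.54 CPM). Each was the highest of its group.

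The Gnb5-/- effect on Gm31520 differed between the chambers, with a ventricular log2 fold change that exceeded the atrial one by 1.65 (adjusted p = 0.00711, edgeR's test of the interaction with each mouse as a block).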

How the results depend on the processing

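Of 20 alternatives set at the start, Gnb5, Snap91 and Rpl29 were called in each. The count of called genes (13) was 69 with DESeq2, 6 with a replicate block and the Gnb5-/- and Gnb5+/- libraries only, and 7 to 23 without 1 library. On chromosome 9 (8) these were 16, 4 and 4 to 11. Elsewhere (5) they were 53, 2 and 3 to 13, with 8 under RLE size factors, 8 with the 12 libraries alone (14 in all, 8 of them among the 13, without Adcy1, Gm31520, Parp3, Mrpl3 and Abhd14b) and 3 with a replicate block. The chamber difference (1) was called for 14 genes by DESeq2, 31 with no filter and 0 by edgeR without the mouse (the replicate block of that comparison, which joins both chambers of 1 animal), where 793 had an unadjusted p below 0.05. The Gnb5 log2 value stayed between -3.47 and -3.21.

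Between genotypes, replicate numbers did not appear to pair mice: same-numbered libraries had correlations of -0.117 to 0.0525, and 0 of 6 Gnb5-/- libraries matched best the Gnb5+/- library of their number. Libraries of other numbers had correlations of -0.156 to 0.233. A link between mice by anything other than replicate number, such as neighbouring mouse numbers, was not tested. The replicate block gave 10 calls in all, 8 of them among the 13.

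Among single genes, values near 0 turned sign when 1 library was left out. Gnb2 ranged from 0.0426 to 0.309 without turning sign. Tnnt2 ranged from -0.129 to 0.0068, the latter without Gnb5+/- replicate 4. Gnb1 ranged from -0.0058 to 0.0423, below 0 without Gnb5+/- replicates 2 or 6 or Gnb5-/- replicate 5. Gnb4 ranged from -0.0349 to 0.0601, below 0 without Gnb5+/- replicates 2, 3 or 4 or Gnb5-/- replicates 2 or 3. The cause of these shifts was not tested. With 6 mice a group and 1 library that stands apart, which of the moderate changes are called depends on single libraries.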
